A study of Homo sapiens with 8 samples.

Results

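The centromeres of human chromosomes 5 and 19 are built on closely related α-satellite arrays, and their recovery by probes against α-satellite RNA was described here. The regions were all peaks of the asynchronous and the mitotic peak list whose start lay between 46 and 52 Mb on chromosome 5 or between 24 and 31 Mb on chromosome 19 of build hs1. They were chosen by position alone, and 9998 of the 65588 listed peaks belonged to them. The asynchronous list held 2486 of its 32035 peaks in the chromosome 5 window and 2459 in the chromosome 19 window. The mitotic list held 2571 and 2482 of 33553.

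The study recovered genomic DNA by ChIRP, in which biotinylated antisense probes draw an RNA and the chromatin attached to it out of sonicated cells. The cells were wild-type RPE1, an immortalised human retinal pigment epithelial line, labelled Async for an asynchronous culture and Meta for the mitotic cells. Of 8 libraries in 6 groups, the Odd and Even probe libraries of each condition had been merged by the authors into 1 peak list, and only these 2 lists were used. Because each condition has a single list, no replicate spread could be measured and no difference between conditions was tested. Intervals are exact, at 95%, and cover only the error of counting, with neighbouring peaks treated as independent. Sequencing depth is unknown from these lists.

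α-Satellite DNA consists of tandem monomers, and a block of monomers that recurs as a unit is called a higher-order repeat. On chromosomes 5 and 19 this unit is a dimer, and the dimer arrays of chromosomes 1, 5 and 19 are so alike that hybridisation probes made for one of them also mark the others. The active part of such an array carries CENP-A, the histone H3 variant on which the kinetochore assembles, and is flanked by more diverged α-satellite and other repeats. Antisense probes can in principle pair with the satellite DNA itself as well as with its RNA. Short reads from near-identical dimers can map to many copies. The placement of such reads by the submitters is not given in these sources.

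Both windows held arrays apart from other peaks. Outside the windows, chromosome 5 carried 11 asynchronous and 119 mitotic peaks, and chromosome 19 carried 3 and 38. The nearest asynchronous peak lay 2963 kb before and 5176 kb after the chromosome 5 peaks, and 8034 kb after those of chromosome 19. The nearest mitotic peak lay 1350 kb before and 2967 kb after those of chromosome 5, and 6276 kb before and 8177 kb after those of chromosome 19. When peaks of both lists were joined over gaps of at most 20 kb, chromosome 5 fell into 4 blocks of at least 20 peaks, while chromosome 19 stayed a single block from 24491442 to 30016871. This gap was chosen after the positions had been seen.

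On chromosome 5 the peaks were concentrated in the main block, from 47021652 to 49596345, which held 1960 asynchronous and 2089 mitotic peaks. A small first block (46201580 to 46349173) held 30 and 31 peaks, and the second (46484477 to 46990495) held 121 and 109. Beyond the main block came the longest empty stretch of the window, 301.8 kb from 49596346 to 49898151, which was followed by 1 mitotic peak and a further 128.2 kb without any. The far block, from 50026602 to 51075948, held 370 asynchronous and 335 mitotic peaks. Only 5 asynchronous and 7 mitotic peaks of the window lay outside these blocks.

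Chromosome 19 had no such break. Its longest stretch without a peak of either list inside the window was 78.2 kb, from 24366697 to 24444928, and the other long ones lay at the far edge. Coverage nevertheless changed in steps along the array. For description it was divided at 25.75, 26.5, 28.5 and 29.75 Mb, from coverage per 250 kb, after the values of both lists had been seen.

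The main block of chromosome 5 was the most fully covered of the blocks. Asynchronous peaks covered 63.0% of its bases and mitotic peaks 58.4%, at 76.1 and 81.1 peaks per 100 kb. The first block was covered over 9.60% and 14.1%, the second over 36.2% and 36.9%, and the far block over 38.5% and 38.9%. Within the far block coverage was uneven: the bin of 250 kb from 50250001 was covered over 21.5% and 11.2%, and the next over 64.2% and 67.3%.

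The array of chromosome 19 had a thinly covered middle between fuller parts. The third stretch, between 26.5 and 28.5 Mb, was covered over 34.3% by asynchronous and 30.3% by mitotic peaks. The second stretch before it was covered over 48.7% and 44.1%, and the fourth, which follows it, over 59.9% and 54.0%. The first stretch, from 24361877 to the border at 25.75 Mb, was covered over 34.1% and 39.0%. The last, beyond 29.75 Mb, held 59 and 36 peaks and little covered length. The fourth stretch of chromosome 19 thus came within 5 percentage points of the main block of chromosome 5 in both lists.

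**Figure D1:**
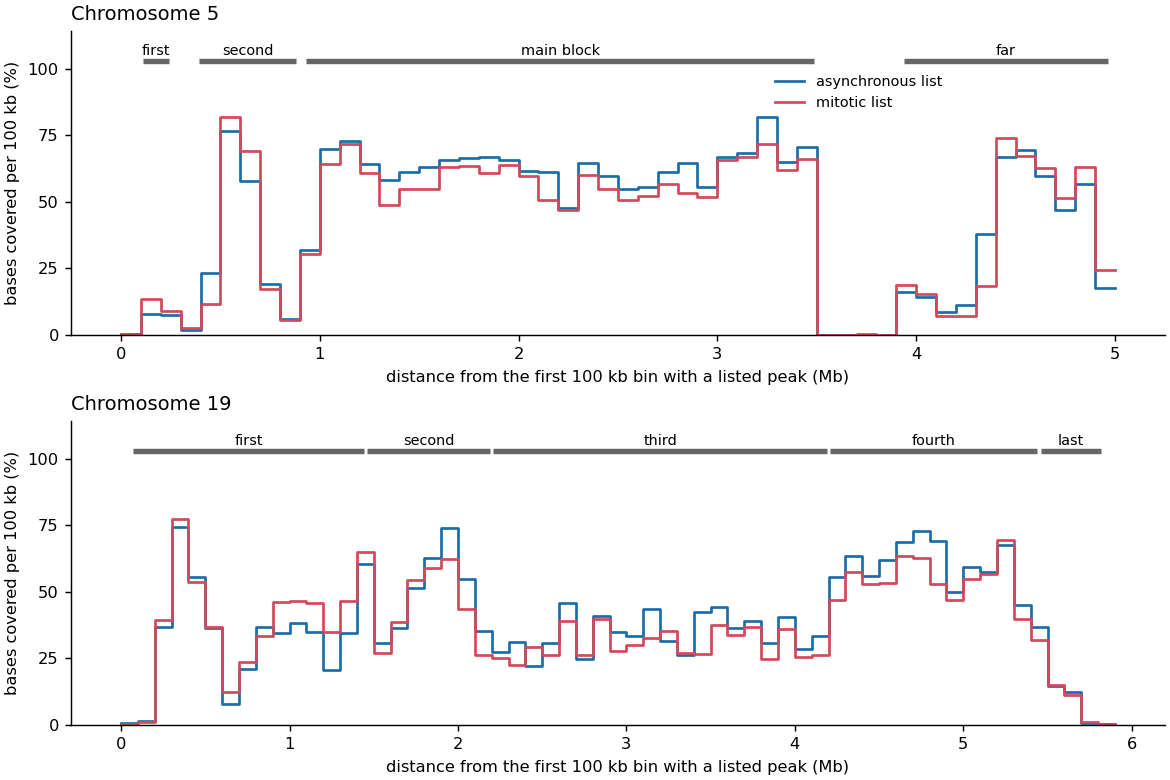
The share of bases covered by peaks in each 100 kb bin (y axis, percent) is plotted along the windows of chromosomes 5 and 19, against the distance in Mb from the first bin with a listed peak. Blue is the asynchronous and red the mitotic list, grey bars mark the blocks and stretches, and the blue line lies above the red one throughout the main block of chromosome 5.

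Peaks of both arrays were short beside those of the whole lists. The median width was 618 bp on chromosome 5 and 671 bp on chromosome 19 in the asynchronous list, against 868 bp over that whole list. In the mitotic list it was 546 and 596 bp, against 796 bp. Peaks of over 2000 bp were few, with 160 between 2000 and 5000 bp and 13 longer ones among the asynchronous peaks of chromosome 5, and 198 and 15 on chromosome 19. The largest joined region of chromosome 5 had the most peaks per length of the 23 chromosomes in both lists, 61.8 and 65.2 per 100 kb, where the median array had 40.2 and 43.1. It ranked 22nd of 23 in median width in the asynchronous list and last in the mitotic list.

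Peaks were stronger on chromosome 5 than on chromosome 19. The authors' fold enrichment, the ratio of pileup to local background, describes, ranks and filters peaks within each list. In the asynchronous list its median was 8.33 on chromosome 5 (quartiles 6.39 and 9.89) and 6.59 on chromosome 19 (5.29 and 8.35), against 7.73 over the whole list. In the mitotic list the medians were 7.64 (6.09 and 9.11) and 6.78 (5.58 and 8.25), against 7.98. Chromosome 5 was thus above its list's median in asynchronous cells and below it in mitotic cells, while chromosome 19 was below in both. The quartile ranges of both chromosomes overlapped in each list. Peaks with a −log10 q of 5 or more and a fold enrichment no lower than 6 are called strong peaks below. These limits cut each list at its own place, so ratios between the lists from strong peaks are to be read against that of the whole lists. Of the asynchronous peaks of chromosome 5, 1969 (79.2%) were strong, where 73.7% of the list were. On chromosome 19, 1519 (61.8%) were. Among mitotic peaks 1958 (76.2%) and 1649 (66.4%) were strong, against 77.6% of the list.

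The strongest peaks gave the same order. Chromosome 5 held 7.76% of all asynchronous peaks (7.47 to 8.06%) and 6.65% of the strongest 10% by fold enrichment (5.81 to 7.57%). It held 7.66% of mitotic peaks (7.38 to 7.95%) and 3.79% of the strongest 10% (3.17 to 4.49%). Chromosome 19 had shares of 7.68% (7.39 to 7.97%) and 2.56% (2.04 to 3.17%) in the asynchronous list, and 7.40% (7.12 to 7.68%) and 1.25% (0.904 to 1.69%) in the mitotic list. Both arrays were thus thinner among the strongest peaks than among all peaks, least so chromosome 5 in asynchronous cells. By covered length chromosome 5 held 4.69% and 4.41% of the lists and chromosome 19 4.87% and 4.56%.

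A smaller share of the numbered calls is listed on chromosome 19 than on chromosome 5. Peak names carry running numbers in genome order, and between the first and last listed peak of the chromosome 5 window 66.0% of the asynchronous and 66.3% of the mitotic numbers were listed. For chromosome 19 these shares were 46.8% and 45.9%. Over the whole lists, up to the highest listed number, they were 42.4% and 22.4%, below both windows. They were 78.7% and 78.0% in the main block of chromosome 5 and 48.2% and 49.0% in its far block. They were 42.9% and 41.2% in the third stretch of chromosome 19 and 61.7% and 59.7% in the fourth. Among the blocks and stretches just named, those with the fuller coverage thus also had the larger listed share in each list. This did not hold throughout. The second block of chromosome 5 was covered more fully than the third stretch of chromosome 19, but its listed shares were lower, at 41.2% and 38.2%. The part of unlisted calls in the coverage was not tested.

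The next comparison asked how each array differed between asynchronous and mitotic cells. Over the whole windows peak numbers were close. On chromosome 5 mitotic over asynchronous peak number was 1.03 (0.978 to 1.09), and covered length went from 2.23 to 2.12 Mb, a ratio of 0.953. On chromosome 19 the ratio of peaks was 1.01 (0.954 to 1.07), and covered length went from 2.31 to 2.19 Mb, a ratio of 0.948. Over the whole lists these ratios were 1.05 (1.03 to 1.06) and 1.01. Both intervals of peak counts included 1, and the covered length of both arrays was lower in the mitotic list. Among strong peaks the log2 ratio of covered length was -0.12 on chromosome 5 and 0.019 on chromosome 19. The sign on chromosome 19 thus did not hold, but both values were below the 0.067 of strong peaks over the whole lists.

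Bins of the main block of chromosome 5 all leaned to the asynchronous list, and those of its flanks mostly did not. Among bins of 100 kb with at least 20 kb covered in either list, the asynchronous list covered more in all 26 bins of the main block of chromosome 5. Over all chromosomes 51.2% of such bins had more asynchronous and 48.8% more mitotic coverage. In the other blocks of chromosome 5 the mitotic list covered more in 7 of 10 bins. Over the whole window of chromosome 19 the asynchronous list covered more in 35 of 52 bins and the mitotic list in 17. Of these 17, 9 were among the 11 bins of the first stretch and 8 among the 40 of the second to the fourth. The border at 25.75 Mb lies where the difference between the lists changes sign, so this split was in part fixed by the choice of stretches. With the border at 26.0 Mb, where asynchronous coverage steps up, the mitotic list covered more in 11 of 14 bins before it and 6 of 37 after it. Neighbouring bins of 1 library pair are not independent, and these counts carry no test.

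Covered length gave the sizes. In the main block of chromosome 5 it went from 1622828 bp asynchronous to 1504399 bp mitotic, a log2 ratio of -0.11. In the far block it went from 404346 to 408210 bp (0.014), and in the second block from 183410 to 186857 bp (0.027). In the small first block it went from 14173 to 20867 bp (0.56). On chromosome 19 the first stretch went from 472806 to 541598 bp, a log2 ratio of 0.20 (0.16 with the border at 26.0 Mb). The second, the third and the fourth stretches had log2 ratios of -0.14, -0.18 and -0.15. Apart from the first block of chromosome 5, all these ratios lay between -0.18 and 0.20.

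Among strong peaks the contrast along each array was wider. There the log2 ratio, 0.067 over the whole lists, was -0.22 in the main block of chromosome 5, 0.14 in its far block and 0.10 in the second. In the first stretch of chromosome 19 it was 0.46, while the second, the third and the fourth stretches were at -0.12, -0.083 and -0.16. With peaks of at least 500 bp these directions were the same. The second and the third stretches of chromosome 19 differed less between the lists among strong peaks than with all peaks. Ratios from strong peaks also carry the change in fold enrichment between the lists. The share of strong peaks went from 83.9% to 76.9% in the main block of chromosome 5 and from 66.2% to 81.5% in its far block. In the first stretch of chromosome 19 it went from 50.2% to 67.3%. The last stretch of chromosome 19, with 41361 and 41194 bp covered, had a log2 ratio of -0.0058 with all peaks, 0.32 among strong ones and 0.24 among wide ones.

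**Figure D2:**
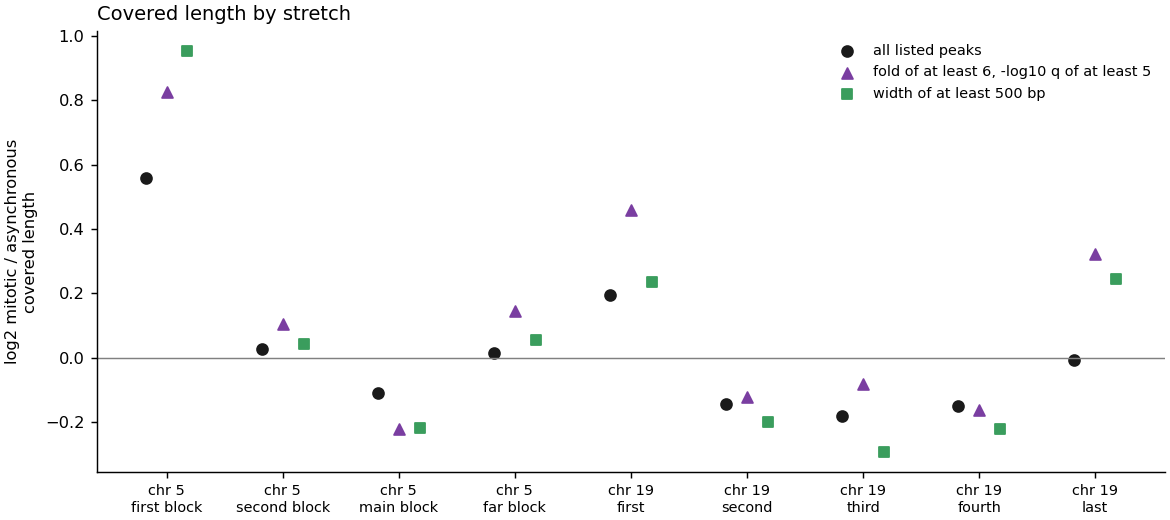
The log2 ratio of mitotic to asynchronous covered length (y axis) is shown for the 4 blocks of chromosome 5 and the 5 stretches of chromosome 19. Circles use all listed peaks, triangles strong peaks (−log10 q of 5 or more, fold enrichment no lower than 6), and squares those of at least 500 bp. The main block of chromosome 5 and the second to the fourth stretches of chromosome 19 lie below 0 in every setting shown.

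The order of strength within chromosome 5 turned over between the lists. In the asynchronous list the main block had a median fold enrichment of 8.56, above the 7.54 of the far block. In the mitotic list the main block had 7.58 and the far block 8.83. Of the peaks in the main block, 148 (7.55%) were among the strongest 10% of the asynchronous list and 48 (2.30%) among the strongest 10% of the mitotic list. In the far block these were 54 (14.6%) and 72 (21.5%). The far block was thus richer in the strongest peaks in both lists, and more so in the mitotic one. The 3 highest fold enrichments of the window all lay in the far block in each list. One of them recurred, from 50932826 to 50933971 in the asynchronous and from 50932850 to 50933971 in the mitotic list.

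On chromosome 19 the first stretch moved up in order between the lists but stayed below the fourth. In the asynchronous list its first stretch had a lower median fold enrichment (6.04) than the second (6.95), the third (6.27) and the fourth (7.58). In the mitotic list the first stretch, at 7.15, was above the second (6.92) and the third (6.35) and below the fourth (7.40). In the fourth stretch 33 asynchronous peaks (4.91%) and 10 mitotic ones (1.38%) were among the strongest 10% of their list, and in the first stretch 24 (5.66%) and 20 (5.04%).

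**Figure D3:**
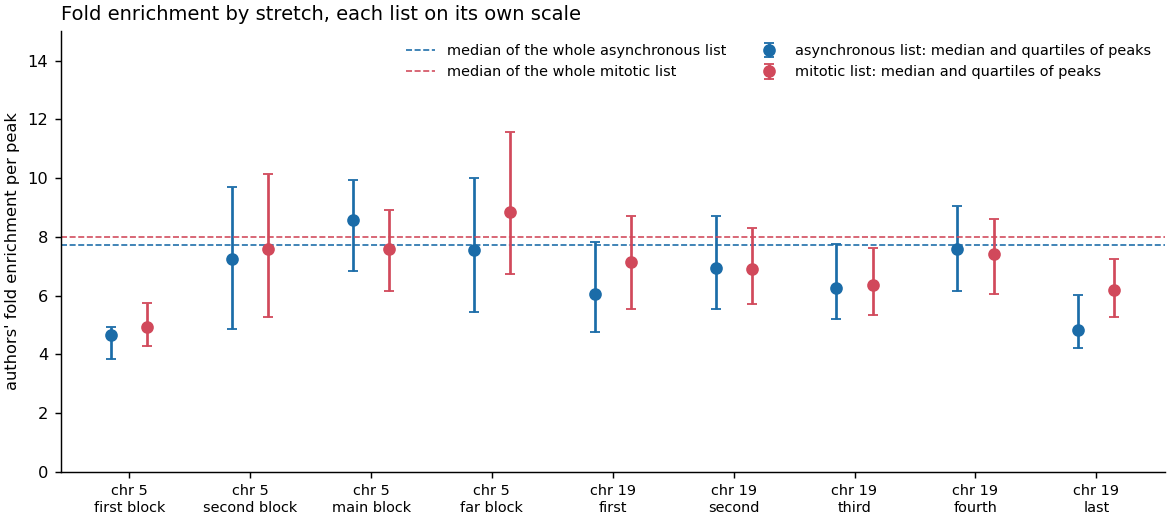
The authors' fold enrichment per peak (y axis) is shown as the median, with bars to the lower and upper quartile, for each block of chromosome 5 and stretch of chromosome 19, in the asynchronous (blue) and mitotic (red) list. Dashed lines mark the medians of the whole lists, 7.73 and 7.98. The main block of chromosome 5 is above its line in the asynchronous list and below it in the mitotic list, while the far block is below and then above.

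Counts of divided peaks differed along the arrays. Over the whole lists 2534 single asynchronous peaks met several mitotic ones, and 2186 single mitotic peaks met several asynchronous ones. In the main block of chromosome 5 median width went from 619 to 543 bp, and 193 single asynchronous peaks met several mitotic ones, while 109 single mitotic peaks met several asynchronous ones. In the far block the counts were 7 and 30, and median width was 643 and 666 bp. The fourth stretch of chromosome 19 had 76 and 31 such cases, and its median width went from 834 to 721 bp. The first stretch had 13 and 29, with widths of 570 and 547 bp. Where 1 peak of each list met, the mitotic one was narrower in 929 of 1532 pairs on chromosome 5 (60.6%) and in 696 of 1204 on chromosome 19 (57.8%), where 54.2% of all such pairs in the lists were. The median difference in these pairs was -26 and -29 bp.

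Large differences in single bins were rare. A difference of at least 1.5 times in covered length was seen in 2 of 36 bins of chromosome 5, both higher in the asynchronous list, and in 2 of 52 bins of chromosome 19, 1 in each direction. Over all chromosomes 0.526% of bins were that much higher in asynchronous cells, as against 4.34% in mitotic cells. On chromosome 5 both bins lay in the flanks: from 50400001 to 50500000 covered length went from 37774 to 18325 bp, and from 46500001 to 46600000 from 23070 to 11383 bp. In the second of these an asynchronous peak of 13522 bp (46572376 to 46585897, fold enrichment 8.60) met no mitotic peak. The bin of chromosome 19 that was higher in the mitotic list lay in the first stretch, from 25500001 to 25600000, with 20537 bp asynchronous and 34806 bp mitotic. The other lay in the third, from 27700001 to 27800000, with 42460 and 26534 bp.

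A few long peaks stood out in the flanks of both arrays. The widest of chromosome 5 lay in the second block, at 27968 bp in the asynchronous list (46595003 to 46622970) and 29171 bp in the mitotic list (46593927 to 46623097). A neighbour of 14845 bp (46642130 to 46656974) recurred with 14847 bp. On chromosome 19 the peak from 24655527 to 24672499, 16973 bp long, recurred with 17044 bp. Some were mainly in the mitotic list: the peak from 25249003 to 25267769, with 18767 bp the widest of chromosome 19, was covered over 14.6% in the asynchronous list, and the peak from 25646079 to 25658698 over 17.6%. In the other direction, the asynchronous peak of 13522 bp on chromosome 5 met no mitotic peak. Asynchronous peaks of 14520 and 12092 bp on chromosome 19 were covered over 97.7% and 100% in the mitotic list. The mitotic peak of 14817 bp on chromosome 5 was covered over 64.9% in the asynchronous list. These long peaks all lay outside the main block of chromosome 5 and in the first stretch of chromosome 19.

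The last comparison of the lists asked how far peaks fell on the same sites. Sharing was more complete on chromosome 5. There 2174 asynchronous peaks (87.4%, 86.1 to 88.7%) met a mitotic peak by at least 1 bp, where 81.9% of the whole list did. On chromosome 19 it was 1784 (72.5%, 70.7 to 74.3%). Of mitotic peaks 2253 (87.6%, 86.3 to 88.9%) and 1848 (74.5%, 72.7 to 76.2%) met an asynchronous peak, against 79.2% of the list. Chromosome 5 was thus above and chromosome 19 below the share of the lists in both directions. Beside the largest joined regions of the 23 chromosomes, however, chromosome 5 was near the median. Its asynchronous share met was 89.1% there, rank 11, where the median was 88.8%, and chromosome 19 ranked 21st. The Jaccard index, shared over combined base pairs, was 67.9% on chromosome 5 and 50.9% on chromosome 19. Requiring a reciprocal overlap of at least 50% left 66.6% and 64.4% of asynchronous and mitotic peaks on chromosome 5 and 47.3% and 46.9% on chromosome 19. The shares of the whole lists at this setting are not given here, and those at 1 bp cannot stand in for them.

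Overlap rises with coverage, so the sharing of bases was also compared with the share of free bases that the other list covered. In the main block of chromosome 5 the mitotic list covered 80.0% of the bases that the asynchronous list covered, and 21.6% of those it did not. In the third stretch of chromosome 19 these shares were 55.4% and 17.2%, in the fourth 73.1% and 25.4%, and in the second 64.2% and 25.1%. In the far block of chromosome 5 they were 76.6% and 15.3%, and in the first stretch of chromosome 19 73.7% and 21.1%. In the first block of chromosome 5 they were 41.5% and 11.2%, and in the last stretch of chromosome 19 25.1% and 9.22%. Bases with an asynchronous peak thus had the higher mitotic coverage in each of these stretches. In the first block of chromosome 5 and the last stretch of chromosome 19, however, most mitotic length lay off the asynchronous peaks, with 28.2% and 25.2% of it shared.

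Peaks without a partner were short and weak on both chromosomes. On chromosome 5, 312 asynchronous peaks met no mitotic one, with a median width of 360.5 bp and a median fold enrichment of 5.41, against 671 bp and 8.66 for the 2174 that did. On chromosome 19, 675 asynchronous peaks had no partner, with 441 bp and 5.29 against 791 bp and 7.30. Among mitotic peaks 318 on chromosome 5 and 634 on chromosome 19 had no partner, with 355 and 405 bp. Peaks without a partner made up 8.13% and 7.33% of the covered length of chromosome 5, and 16.9% and 15.3% of that of chromosome 19. A short peak is less likely to meet another by 1 bp, so the difference in width is partly set by the definition. Such values over the whole lists are not given here.

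Paired peaks were placed more exactly on chromosome 5 than on chromosome 19. Of its 1532 pairs of 1 asynchronous and 1 mitotic peak, 539 starts (35.2%) and 540 ends (35.2%) differed by at most 25 bp. On chromosome 19, 279 starts (23.2%) and 263 ends (21.8%) of 1204 pairs did. The median size of the shift was 48 bp for starts and ends on chromosome 5, and 75 and 76 bp on chromosome 19. No such shares over the whole lists are given here, so neither chromosome can be called high or low against them. The limit of 25 bp also equals the grid of peak borders described below.

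The 2 arrays were then set beside the largest joined region of each of the 23 chromosomes with peaks, where the gap for joining was 100 kb. For chromosome 5 this was the region from 46170355 to 49596345, which leaves out the far block. Its covered length had a log2 ratio of -0.088, rank 20 of 23 from the top, and that of chromosome 19 was -0.077, rank 19. Chromosome 1 (121618803 to 126846321), which also carries a related dimer array, was lowest at -0.14, and chromosomes 11 and X also lay below chromosome 5. Among strong peaks chromosome 5 was next to lowest at -0.18, beside -0.19 on chromosome 1, while chromosome 19 was at 0.019, rank 15. The median array had log2 ratios of 0.015 with all and 0.044 with strong peaks. Chromosomes 11 and X were at -0.16 and -0.10 among strong peaks. Chromosomes 10 and 16 were at -0.066 and 0.0098 with all peaks and at 0.050 and 0.058 with strong ones. Chromosomes 5, 1, 11 and X thus lay at the low end in both settings and chromosome 19 with all peaks. A low ratio was therefore not particular to the related dimer arrays.

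**Figure D4:**
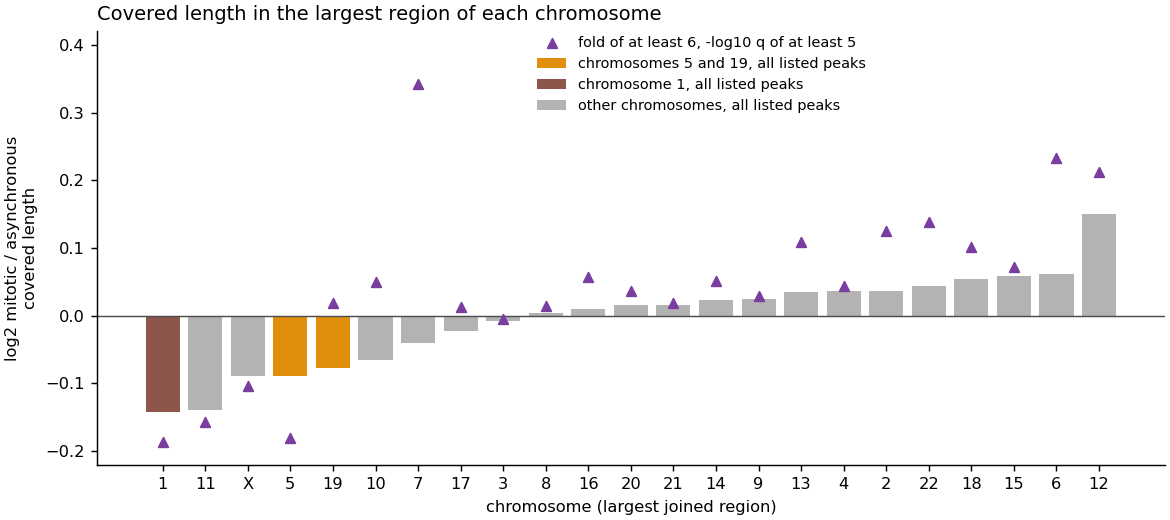
Bars give the log2 ratio of mitotic to asynchronous covered length (y axis) in the largest joined region of each of 23 chromosomes (x axis), from all listed peaks, and triangles the same from strong peaks (−log10 q of 5 or more, fold enrichment no lower than 6). Chromosomes 5 and 19 (orange) and 1 (brown) lie below 0 with all peaks, and the triangle of chromosome 19 lies just above it.

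The arrays of chromosomes 5 and 19 were less alike in other measures. The kept share of numbered calls was 70.8% and 70.5% on chromosome 5, rank 11, and 46.8% and 45.9% on chromosome 19, rank 21. The Jaccard index of the largest region was 69.5% on chromosome 5, 50.9% on chromosome 19 and 59.5% on chromosome 1. Chromosome 5 ranked 14th and chromosome 19 20th in this index, and the median array had 72.7%. Coverage ranked 17th on chromosome 5 and 22nd on chromosome 19 in both lists. Chromosome 1 lay between them in the Jaccard index and above both in coverage.

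Peak borders recurred at multiples of the dimer length, weakly, and more clearly on chromosome 5 than on chromosomes 19 and 1. For distances between peak ends of 1 to 20 kb in the main block of chromosome 5, 29.7% of asynchronous and 28.8% of mitotic distances were at most 42.5 bp away from a multiple of 340 bp, where an even spread over remainders gives 25%. For peak starts the shares were 28.8% and 27.5%. Over the whole chromosome 5 window, the closer match to the chromosome 19 window, they were 29.2% and 28.5% for ends, and 28.3% and 27.2% for starts. On chromosome 19 they were 27.4% and 26.8% for ends, and 26.3% and 26.9% for starts. On chromosome 1 they lay between 25.6% and 25.8%. Both lists lie on 1 reference sequence, so a recurrence in both is not independent support. Peak borders also favoured a grid of 25 bp, with 90.1% to 93.2% of starts and ends in the 5 most frequent of 25 remainders (20% if even), and its part in the periods was not tested.

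The strength of a period was also taken as the mean cosine of these distances, which is 1 for perfect recurrence and 0 for none. Of periods from 100 to 1000 bp, 340 bp had the highest mean cosine on chromosome 5 for starts and ends in both lists, at 0.0608 and 0.0371 for starts and 0.0956 and 0.0789 for ends. For distances between peak midpoints of chromosome 5, 340 bp led in the mitotic list (0.0296). In the asynchronous list 584 bp led for midpoints (0.0190), with 0.0102 at 340 bp. On chromosome 19, 340 bp led for ends in both lists (0.0335 and 0.0367) and for starts in the mitotic list (0.0327). It also led there for midpoints in both lists (0.0217 and 0.0245), while 708 bp led for asynchronous starts. At the monomer length of 170 bp the mean cosine on chromosome 5 was 0.0167 and 0.0189 for starts and 8.7e-05 and 0.00099 for ends. On chromosome 19 it was 0.0145 and 0.0072 for starts and 0.0239 and 0.0089 for ends. Asynchronous starts of chromosome 19 thus had nearly the same value as at 340 bp (0.0152). Among the 23 arrays, chromosome 5 ranked 1st at 340 bp for asynchronous ends, 2nd for mitotic ends and 3rd for starts in both lists. Chromosome 19 ranked 7th for ends in both lists, and 10th and 6th for starts. Chromosomes 14 and 18 were above chromosome 5 for starts in both lists, and chromosome 18 for mitotic ends. Chromosome 10 ranked 2nd for asynchronous ends (0.0624) and 3rd for mitotic ends (0.0774), above chromosome 19. Its starts were at 0.0093 and 0.0268, below chromosome 19. Chromosome 16 had 0.0153 and 0.0017 for ends. A high rank for the weak recurrence of ends was thus not particular to chromosome 5.

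**Figure D5:**
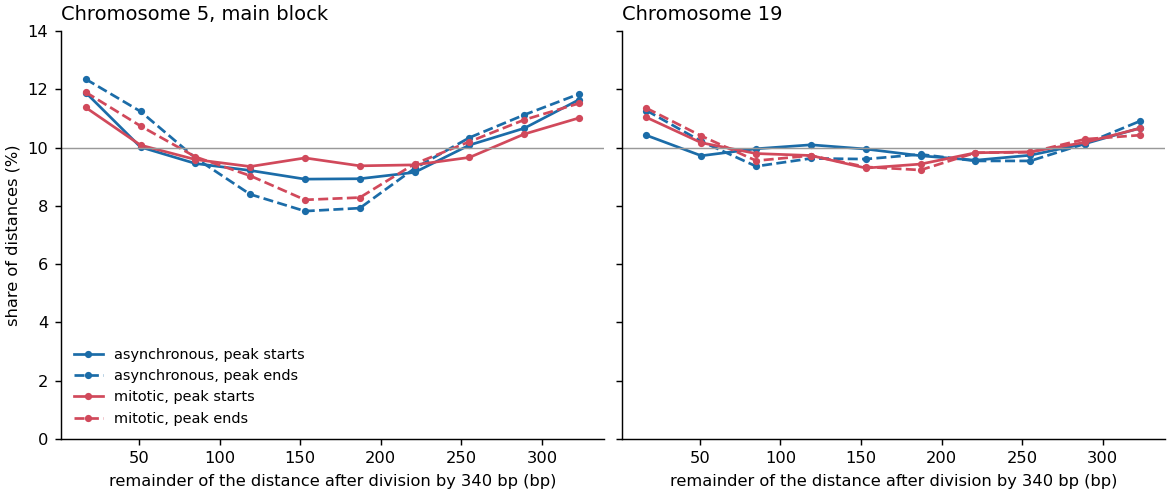
Distances of 1 to 20 kb between peak borders were divided by 340 bp, and the share of distances (y axis, percent) in each of 10 classes of remainder of 34 bp (x axis) is plotted for the main block of chromosome 5 and for chromosome 19. Solid lines are peak starts, dashed lines peak ends, and the grey line at 10% is an even spread. In the main block of chromosome 5 asynchronous ends range from 7.82% to 12.4%, with the low at remainders of 136 to 169 bp. Remainders are of distances between borders and give no position within the dimer.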

How the data were processed

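Per the submitters' processing notes fastp, Bowtie2 and MACS2 were used with build hs1, with versions and settings not given in the sources used here. Per the labels, the authors merged the Odd and Even libraries of each condition into 1 peak list. Neither list names its columns, which were identified by their values and the order of the MACS2 table. From it came the authors' pileup signal, a deposited fold enrichment (a ratio) and a deposited −log10 q. The 3 further deposited score columns are unnamed and were not used. Input and Scr libraries were not analysed here.

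Members, stretches and measures were chosen with earlier results of these data known. Overlap required 1 bp. Intervals are Clopper-Pearson for shares and exact conditional binomial for ratios of counts. Alternatives were a limit on fold enrichment and q, a least width of 500 bp, a reciprocal overlap, other gaps and bins, and peak ends and midpoints. Code was tested on simulated data. Named peaks were the 3 highest in fold enrichment and the 3 widest of a chromosome and list, from which examples are given, beside all blocks, the longest empty stretches and the bins of largest difference. No gene is named and no sequence read, since the reference tables describe GRCh38.p14 and not hs1. Software was matplotlib 3.10.9, scipy 1.17.1, numpy 2.4.6, pandas 2.3.3 and Python 3.11.15.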

Additional observations from a re-analysis of the deposited data

How the results depend on the processing

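No paired analysis was possible because the Odd and Even libraries were merged before peaks were called and neither can be left out. Values without replicates were held against their counting interval or a factor of 1.5. Among strong peaks (−log10 q of 5 or more, fold enrichment no lower than 6) the log2 ratio of mitotic to asynchronous peaks was -0.0081 on chromosome 5 (0.05 with all peaks) and 0.12 on chromosome 19, and that of covered length was -0.12 and 0.019. Chromosome 19 then had 1519 and 1649 peaks, 85.3% of asynchronous peaks on chromosome 5 were met, and 76.6% and 72.6% on chromosome 19. The median fold enrichment of chromosome 5 was then 1.09 above that of chromosome 19 in the asynchronous list, and median widths were -98 and -104 bp apart. With widths of at least 500 bp chromosome 5 kept 1476 and 1393 peaks and chromosome 19 kept 1590 and 1481, with log2 ratios of -0.083 and -0.10 for peaks and -0.13 and -0.12 for covered length, and width differences of -3 bp (asynchronous) and 1 bp (mitotic). The last stretch of chromosome 19 turned to 0.32 and 0.24 under these limits. Reciprocal overlap gave 66.6% and 64.4% on chromosome 5 and 47.3% and 46.9% on chromosome 19. Shares met over the whole lists are not given for strong peaks or for reciprocal overlap. Bins of 200 kb left 0% past 1.5 times for the asynchronous bins of chromosome 5 and for both directions of chromosome 19, and a gap of 20 kb, added after the data were seen, gave 4 regions on chromosome 5. The mean cosine at 340 bp became 0.0956 and 0.0789 from ends on chromosome 5 and 0.0335 from asynchronous ends on chromosome 19, and 0.0102 from asynchronous midpoints on chromosome 5. The causes were not tested. The other 52 comparisons of main results stayed within the interval or factor used. For single bins that interval is wide: with bins of 50 kb the chromosome 5 bins past 1.5 times went from 5.56% to 2.70% higher in asynchronous and from 0% to 1.35% higher in mitotic cells. Moving the first border of chromosome 19 to 26.0 Mb, also added after the data were seen, gave the first stretch a log2 ratio of 0.16.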
